A study of Canis lupus familiaris with 32 samples.

Results

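Of 32 primary osteosarcomas of dogs, 7 had been graded low or medium malignant and 25 highly malignant, and gene expression was compared between these grades. The members were taken from the study's clinical table by tumor number: tumors 5, 6, 12, 17, 18 and 20 were of medium grade, tumor 28 was of low grade, and all others were of high grade. Each tumor, from a separate dog, was hybridised once, on a two-color cDNA array, together with a reference pool made of RNA of the study's tumors. The tumor carried the dye Cy5 on 16 arrays and Cy3 on the other 16. Dogs were classed as short survivors (SS) or long survivors (LS). The p-values rest on the spread between dogs, which includes that between arrays because each tumor was hybridised once.

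The low or medium grade tumors came from 4 LS and 3 SS dogs, 5 male and 2 female, aged 4 to 9 years with a median of 8. They were 2 Great Danes, 2 crosses, 2 Dobermanns and 1 Rottweiler, against 16 breeds or crosses among the high grade cases. All 7 tumors lay in a limb, 4 had a fibroblastic component, 2 a chondroblastic and 2 a telangiectatic one, and 5 dogs received chemotherapy after surgery. The high grade tumors came from 12 LS and 13 SS dogs, 13 male and 12 female, aged 2 to 11 years with a median of 7. Of these 25 tumors 19 lay in a limb and 6 were axial or extraskeletal, 12 had a fibroblastic component, 6 a chondroblastic and 2 a telangiectatic one, and 16 dogs received chemotherapy. The tumor was in Cy5 on 5 low or medium grade and 11 high grade arrays, and in Cy3 on 2 low or medium grade and 14 high grade arrays. The 5 low or medium grade tumors in Cy5 were all of male dogs and the 2 in Cy3 both of female dogs, so sex and dye cannot be told apart inside this group.

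Osteosarcoma is a malignant tumor whose cells lay down osteoid, the collagen matrix of bone. A pathologist grades it from the microscope slide, by features such as the variation of the nuclei, the number of dividing cells, the amount of matrix and the extent of necrosis. Lower grades are the less disordered ones, and they are the minority among canine osteosarcomas. Genes of cell division, bone matrix and the cells that surround or enter a tumor are therefore the groups described here beside the genes of smallest p.

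The values were log2 ratios of tumor over pool. Between the dyes limma called 14165 of 22176 probes at an adjusted p under 0.10, so tumor values are set side by side only within a dye. Grade differences are those of a limma model with grade, dye and survival group, written as low or medium minus high on the log2 scale, with the standard error (SE). The ratios are relative to the pool, so a marker's absence from a tumor cannot be read from them. The spread of an array's ratios (SD over probes) was 0.474 to 0.717 in low or medium grade and 0.490 to 0.762 in high grade tumors.

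No probe was called by grade. Limma called 0 of 22176 probes higher and 0 lower (percent called 0) at an adjusted p under 0.10, and the smallest adjusted p was 0.996. At an unadjusted p under 0.05 there were 876 probes (3.95%), 454 of them higher (2.05%) and 422 lower (1.90%) in low or medium grade tumors, where 1109 would be 5% of the probes tested. A rank-sum test called 0 probes too, with 957 at an unadjusted p under 0.05. Over 20 bins of p from 0 to 1 the number of probes lay between 876 and 1244.

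**Figure D1:**
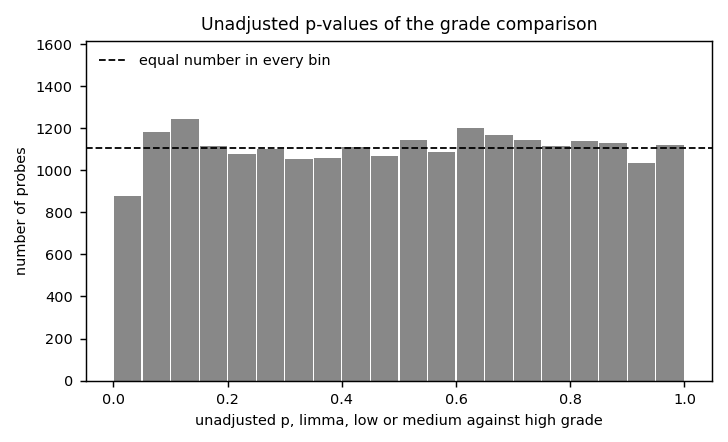
Unadjusted p-values of the limma grade comparison over 22176 probes in 20 bins of equal width (x axis, p; y axis, number of probes), with a dashed line at equal filling. The bin below 0.05 holds 876 probes, the fewest of any bin.

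The intervals show what size of difference these arrays could hold. The median probe had a difference of 0.01 with an SE of 0.12, and the quartiles of the differences were -0.07 and 0.09. The 95% interval of the median probe reached 0.24 to either side, and at the 90th percentile of the probes it reached 0.52. For 20820 probes (93.9%) the whole interval lay inside a 2-fold difference in either direction. The fitted difference exceeded 2-fold at 169 probes, 60 of them with an unadjusted p under 0.05.

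Nor was the grade difference shown to depend on survival or dye. The interaction of grade with survival group (3 low or medium against 13 high grade tumors in SS, 4 against 12 in LS) called 0 probes, with a smallest adjusted p of 0.985 and 1056 probes at an unadjusted p under 0.05 (4.76%). The interaction of grade with dye called 0 probes as well, with a smallest adjusted p of 0.299 and 823 probes at an unadjusted p under 0.05 (3.71%).

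In the following, every gene had an adjusted p of 0.996 or more in limma, and the values describe these 32 tumors without a call. The genes of smallest p were taken only where the sign was the same in Cy5 and Cy3 arrays and in SS and LS dogs. A tumor is counted as above or below when it lay on that side of the high grade median of its own dye. Over all probes, all 7 low or medium grade tumors lay above that median at 297 probes (1.34%) and below it at 336 (1.52%). Since small p-values chose the genes, 7 of the 12 higher and 8 of the 12 lower genes with all 7 tumors on one side are no further evidence.

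The smallest p of the 24 genes was that of NTPCR, a nucleoside triphosphatase with lower values in low or medium grade tumors. The log2 ratios of NTPCR were 0.02, -0.04, -0.13, -0.21 and 0.16 in tumors 5, 6, 17, 18 and 20, all in Cy5, against -0.03 at the lowest, 0.35 at the median and 0.88 at the highest of 11 high grade tumors in Cy5. In Cy3, NTPCR stood at -0.79 and -0.56 in tumors 12 and 28, against -0.71 at the lowest, -0.16 at the median and 0.28 at the highest of 14 high grade tumors. All 7 lay below the high grade median of their dye, and the groups overlapped in both dyes. The fitted difference was -0.47 ± 0.12 (SE, n = 7 and 25), with an unadjusted p of 0.00045 and a 95% interval of -0.71 to -0.22 in limma.

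PSAP encodes prosaposin, the precursor of lysosomal activators of sphingolipid breakdown. Its ratios were -0.15, 0.17, 0.18, -0.35 and -0.02 in the 5 low or medium grade tumors in Cy5, against -0.13 to 0.73 (median 0.39) in the 11 high grade ones. In Cy3 it was at -0.61 and -0.72 in tumors 12 and 28, both under the whole high grade range of -0.36 to 0.45 (median -0.07). The difference of this probe was -0.44 ± 0.11 (unadjusted p = 0.000464, limma), while the other 2 probes of PSAP gave 0.10 and -0.09, so the gene's probes disagreed.

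CHMP4A and CHMP2A, subunits of the ESCRT-III complex that pinches off membranes, were both among the 12 lower genes, at -1.04 ± 0.34 and -0.34 ± 0.11. CHMP4A had log2 ratios of -0.97, 0.02, 0.17, -1.79 and -1.72 in tumors 5, 6, 17, 18 and 20, against -0.64 at the lowest, 0.48 at the median and 2.18 at the highest in high grade tumors in Cy5. Tumors 12 and 28 had -0.71 and -0.77, against -1.59 at the lowest, -0.36 at the median and 0.995 at the highest in high grade tumors in Cy3. Tumors 5, 18 and 20 were thus lower than any high grade tumor in Cy5, tumors 6 and 17 lay inside the high grade range, and a second CHMP4A probe differed by -0.17.

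The same tumors were low for 3 genes of mitochondria and sterol synthesis. FDFT1, squalene synthase of the cholesterol pathway, had -1.05, -0.10, 0.17, -1.84 and -1.41 in the Cy5 tumors in the same order, against -0.40 to 2.17 (median 0.41) in high grade tumors. NDUFB3, a complex I subunit of the respiratory chain, had -1.25, -0.13, 0.21, -1.31 and -1.26, against -0.75 to 2.17 (median 0.21). NDUFV2, another complex I subunit, had -1.23, 0.06, 0.54, -1.43 and -1.32, against -0.51 to 1.82 (median 0.30). In each of these genes tumors 5, 18 and 20 were lowest and tumors 6 and 17 were near 0 or above it. Tumors 12 and 28 had -0.38 and -0.56 for FDFT1, -0.57 and -1.03 for NDUFB3 and -0.76 and -0.98 for NDUFV2, all inside the high grade Cy3 ranges of -1.35 to 0.86 (median -0.36), -1.42 to 0.94 (median -0.17) and -1.61 to 0.87 (median -0.27). The fitted differences were -0.90 ± 0.29 for FDFT1, -0.91 ± 0.29 for NDUFB3 and -0.85 ± 0.30 for NDUFV2. The respiratory chain as a list had a median difference of -0.02 over 76 probes, 33 of them above 0 and 43 below. At an unadjusted p under 0.05, 0 were higher and 2 lower, against 2.05% and 1.90% of all probes.

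Other lower genes had smaller differences. PPP1R11, an inhibitor of protein phosphatase 1, was at -0.36 ± 0.10, SPIN1, a reader of methylated histone H3, at -0.20 ± 0.06, and TMOD1, which caps actin filaments, at -0.34 ± 0.11. The second SPIN1 probe was at -0.12, and the other 4 TMOD1 probes were at -0.10, -0.08, -0.50 and 0.05. RNF10, a RING finger ubiquitin ligase, was at -0.49 ± 0.15, and its 4 other probes lay between -0.23 and -0.13. ZFAND6, a zinc finger protein, was at -0.48 ± 0.16, with -0.69 in Cy5 tumors alone and -0.03 in Cy3 tumors alone, and its other probes were at -0.43 and 0.00. CSNK1D, casein kinase 1 delta, was at -0.67 ± 0.22, but tumor 28 alone had a ratio of -3.05 where tumor 12, the other low or medium grade tumor in Cy3, had -0.21, and without tumor 28 the difference was -0.19.

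Among the higher genes THUMPD2, an RNA methyltransferase, had the smallest p. Its ratios were 0.05, 0.05, 0.01, 0.25 and 0.19 in the 5 low or medium grade tumors in Cy5, against -0.38 at the lowest, -0.16 at the median and 0.04 at the highest in high grade tumors. In Cy3 it had 0.58 and 0.45, against -0.14 at the lowest, 0.17 at the median and 0.53 at the highest in high grade tumors. All 7 tumors lay above the high grade median, and the size of the difference was 0.26 ± 0.07, a fold of 1.20 (unadjusted p = 0.000818, limma).

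GPX8, a glutathione peroxidase of the endoplasmic reticulum membrane, was higher by about the same amount in every subset. Log2 ratios of 0.36, 0.33, -0.05, 0.41 and 0.74 were measured in tumors 5, 6, 17, 18 and 20, against -0.93 at the lowest, -0.19 at the median and 0.54 at the highest in high grade Cy5 tumors. Tumors 12 and 28 had 0.52 and 0.48, against -0.60 at the lowest, -0.05 at the median and 0.86 at the highest in high grade Cy3 tumors. The difference was 0.53 ± 0.17 over all arrays, 0.53 in Cy5 tumors alone, 0.53 in Cy3 tumors alone, 0.54 in SS and 0.51 in LS dogs. The other probe of GPX8 was at 0.73, and both probes had all 7 tumors above the high grade median. Tumor 20 lay above every high grade tumor in Cy5, and the other 6 lay inside the high grade range of their dye.

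SEC61B, a subunit of the channel through which new proteins enter the endoplasmic reticulum, was at 0.40 ± 0.13, with 7 of 7 tumors above the high grade median, while its second probe was at 0.02. SLC1A3, a glutamate transporter, and LOC403581, annotated as a transcribed pseudogene, had the largest fitted differences of the 24 genes, 2.01 ± 0.67 and 2.03 ± 0.64. SLC1A3 had ratios of 1.31, 1.46, 1.53, 4.32 and 5.13 in low or medium grade Cy5 tumors, against -1.25 to 4.91 (median 0.67) in high grade ones. In Cy3 it had 4.25 and -0.92 in tumors 12 and 28, against -1.97 to 0.96 (median -0.72), so tumor 12 lay above every high grade tumor and tumor 28 under the median. For LOC403581 the difference was 0.92 in SS and 3.16 in LS dogs, and a second probe was at -0.06.

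The remaining higher genes were EGF (epidermal growth factor) at 0.34 ± 0.12, SCGB1A1 (a secretoglobin of airway epithelium) at 0.25 ± 0.08, WDR90 (a protein of centrioles) at 0.17 ± 0.06, TMEM192 (a lysosomal membrane protein) at 0.45 ± 0.16 and DNAJC2 (a chaperone of the ribosome) at 0.36 ± 0.13. The uncharacterised LOC475405 and LOC611666 were at 0.46 ± 0.16 and 0.66 ± 0.23. The second probe of TMEM192 was at -0.05 and that of LOC475405 at 0.17.

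**Figure D2:**
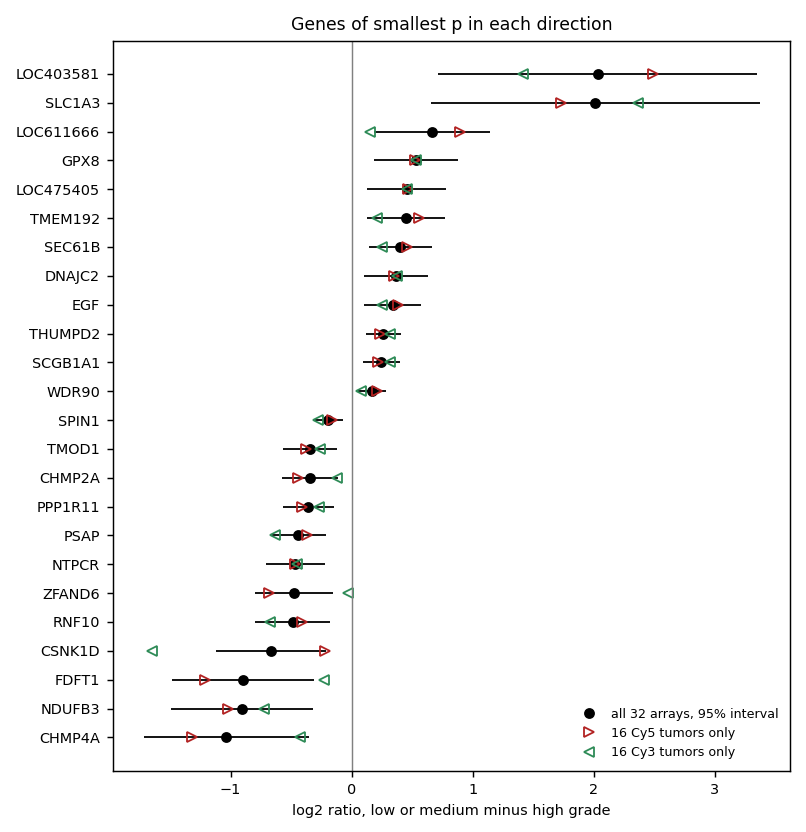
Fitted difference of the 12 higher and 12 lower genes (x axis, log2 ratio, low or medium minus high grade; black points with 95% intervals over all 32 arrays; red triangles, Cy5 tumors only; green triangles, Cy3 tumors only). GPX8 and NTPCR have near equal values in both dyes, while CSNK1D is at -0.22 in Cy5 and -1.65 in Cy3 tumors.

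Cell division is one of the features a grade is read from, and no gene of it was called. Of the 50 genes on a mitosis and cell cycle list 11 were measured, on 14 probes, and 0 were higher or lower at an unadjusted p under 0.05, against 2.05% and 1.90% of all probes. Their median difference was 0.01, with the opposite sign in 14 of 49 alternative fits, and their range -0.13 to 0.17, against a median of 0.01 over all probes. The list median was 0.09 in Cy5 tumors alone, -0.17 in Cy3 tumors alone, -0.19 in SS and 0.20 in LS dogs. The members include BIRC5 (survivin) at 0.05 ± 0.25, CCNB2 (cyclin B2) at 0.00 ± 0.31, FOXM1 (a transcription factor of mitotic genes) at 0.00 ± 0.20 and CENPA (the histone of centromeres) at 0.05 ± 0.10. Of the 7 low or medium grade tumors, 3 lay above the high grade median for BIRC5, 1 for CCNB2, 7 for FOXM1 and 5 for CENPA. The 95% interval of CCNB2 ran from -0.62 to 0.63 and that of CENPA from -0.16 to 0.26, so the precision differed widely between members. BUB3, a spindle checkpoint protein, and CKS1B, a subunit of cyclin dependent kinases, were the members of smallest p, at -0.13 ± 0.15 and 0.14 ± 0.16, with their other probes between -0.03 and -0.02. High grade means of the first CKS1B probe were -0.64 in Cy5 and 0.72 in Cy3.

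By tumor, the level of the list (the median over its genes after subtracting the high grade mean of the same dye) was 0.11, -0.16, -0.04, 0.02, 0.09, 0.19 and -0.22 in tumors 5, 6, 12, 17, 18, 20 and 28, against -0.55 to 0.56 (median 0.05) in high grade tumors. Tumor 28, the one of low grade, was the lowest of the 7, and all 7 lay inside the high grade range. DNA replication and nucleotide synthesis genes (26 probes, 18 genes) had a median difference of -0.07, with 8 probes above 0 and 18 below and 0 at an unadjusted p under 0.05. The list level was -0.18 to -0.01 (median -0.07) in low or medium grade tumors and -0.51 to 0.22 (median -0.01) in high grade tumors. GMNN (geminin, the inhibitor of replication licensing) was at -0.36 ± 0.28 and DUT (which removes dUTP) at -0.24 ± 0.18. MCM7 (a subunit of the replicative helicase) was at 0.24 ± 0.20, and its 4 other probes lay between -0.18 and 0.03. DNA repair and p53 response genes (15 probes) had a median of -0.03.

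Bone matrix genes had the highest median over probes of any list, with no member past an unadjusted p of 0.05. The osteoblast and bone matrix list had 8 of its 31 genes on the array, on 14 probes, of which 10 were above 0 and 4 below, and a median difference of 0.69, against 0.01 over all probes, where 52.7% were above 0. Of these probes 5 were for SPARC (osteonectin) and 3 for COL1A2 (a chain of type I collagen), so a pair of genes makes up most of the list. SPARC differed by 0.55 to 0.79 and COL1A2 by 0.77 to 1.06 over their probes. ALPL, the alkaline phosphatase of mineralising osteoblasts and a defining marker, was at 1.27 ± 0.63, and SPP1 (osteopontin) at 0.51 ± 0.79. The other members were near 0: BMP2 (a bone morphogenetic protein) at -0.13, PHEX (a regulator of phosphate handling) at -0.13, ATF4 (a transcription factor of osteoblasts and of stress) at -0.07 and SMAD5 (a mediator of BMP signals) at 0.00.

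ALPL had ratios of 0.29, -0.13, -0.34, 0.91 and 0.93 in tumors 5, 6, 17, 18 and 20, against -3.86 at the lowest, -1.31 at the median and 0.60 at the highest in high grade Cy5 tumors. Tumors 12 and 28 had -1.67 and 1.78, against -2.48 at the lowest, 0.15 at the median and 1.49 at the highest in high grade Cy3 tumors. The low or medium grade values were thus high in Cy5 and at both ends in Cy3, and they overlapped with high grade tumors in both dyes. The unadjusted p was 0.0515 and the interval -0.01 to 2.54 (limma). Within LS dogs the difference was 2.36 and within SS dogs 0.17, and this gap was not called by the interaction fit.

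COL1A2 had ratios of 1.72, 1.02, 0.93, 0.35 and 0.29 in low or medium grade Cy5 tumors, against -2.42 at the lowest, 0.29 at the median and 1.78 at the highest in high grade ones. In Cy3 they were -0.999 and 0.70, against -5.70 at the lowest, -0.81 at the median and 0.71 at the highest. High grade tumors spread further down in both dyes, and the upper ends of the groups lay close together. SPARC had -0.14, 1.51, 0.35, -0.76 and -0.25 in low or medium grade Cy5 tumors, against -2.71 to 0.38 (median -0.17) in high grade ones, and 0.43 and 1.37 in Cy3, against -2.94 to 1.33 (median -0.30). In SPARC, too, high grade tumors lay both below and among the low or medium grade ones, with differences of 0.79 ± 0.43 for SPARC (p = 0.0776) and 0.95 ± 0.59 for COL1A2 (p = 0.119), both unadjusted, from limma.

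With each gene counted once, the level of the bone matrix list was 0.12, 0.84, 0.09, 0.39, -0.20, 0.05 and 1.20 in tumors 5, 6, 12, 17, 18, 20 and 28, a median of 0.12, against -1.49 to 0.83 (median -0.01) in high grade tumors. Tumors 28 and 6 were above every high grade tumor, and the other 5 were inside the high grade range. By this level the list no longer ranked highest, since the secretory pathway list had a median of 0.128 in low or medium grade tumors. The probe median of the bone matrix list was 0.30 in Cy5 tumors alone, 1.24 in Cy3 tumors alone, 0.97 in SS, 0.35 in LS, and 0.46 without tumor 28. It was above 0 in all 49 alternative fits, at 0.30 to 1.24.

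Of other mesenchymal and bone lists, cartilage (5 probes of COMP and COL2A1) had a median of 0.14, with COMP, a cartilage matrix protein, at 0.27 ± 0.59. COL2A1, like COMP a defining marker, was at 0.08 ± 0.70 and -0.02 ± 0.33. Osteoclast genes (8 probes, 6 genes) had a median of 0.16, with 7 probes above 0 and 1 below. The cartilage median turned its sign under quantile normalization and with arrays scaled to equal spread, and the osteoclast median in SS dogs alone. ATP6V0D2, a subunit of the proton pump that osteoclasts use to dissolve mineral, was at 0.90 ± 0.57, the protease CTSK (cathepsin K) at 0.46 ± 0.50 and CA2 (carbonic anhydrase 2) at 0.40 ± 0.63. Without tumor 28 CTSK was at 0.28, without tumor 4 CA2 was at 0.20, and the second CA2 probe was at 0.01. The fibroblast and soft matrix list (44 probes, 22 genes) had a median of -0.01, with 21 probes above 0 and 23 below. Of its defining markers, DCN was at 0.89 ± 0.64 and 0.68 ± 0.57, COL3A1 at 0.02 and 0.01 and DPT at -0.03. Neither DCN probe kept its sign in all of Cy5, Cy3, SS and LS tumors alone. ASPN (asporin, a small matrix proteoglycan) was at 0.59 ± 0.26 with 7 of 7 tumors above the high grade median (unadjusted p = 0.0312, limma), COL5A1 (a chain of type V collagen) at 0.38 ± 0.24 and ACTA2 (smooth muscle actin) at -0.58 ± 0.30. Matrix proteases and their inhibitors had a median of -0.02 over 16 probes, with ADAM10, a membrane protease, at 0.38 ± 0.17 and the inhibitors TIMP3 and TIMP1 at -0.55 ± 0.29 and -0.49 ± 0.33. The other 3 probes of TIMP3 were at -0.20, -0.36 and 0.13, and without tumor 12 ADAM10 was at 0.16.

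Myeloid and antigen presentation genes were mostly below 0. Of 20 probes for macrophages and myeloid cells 19 were below 0 and 1 above, with a median difference of -0.28, and 4 of the 20 were lower at an unadjusted p under 0.05, against 1.90% of all probes. Of 23 antigen presentation probes 21 were below 0 and 2 above, with a median of -0.42, and 2 were lower at that p. Several of these probes are of 1 gene, and a few genes are on both lists, so the probes are not independent of each other. In whole tumor tissue, fewer cells of a type and less RNA per cell cannot be told apart.

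LYZ, the lysozyme of monocytes and macrophages, had ratios of -1.14, -0.81, -1.08, -1.25 and -1.49 in tumors 5, 6, 17, 18 and 20, against -2.14 at the lowest, -0.06 at the median and 2.98 at the highest in high grade Cy5 tumors. Tumors 12 and 28 had -1.67 and -1.79, against -2.49 at the lowest, -1.10 at the median and 0.85 at the highest in high grade Cy3 tumors. The 7 low or medium grade tumors were close to each other and all below the high grade median, and some high grade tumors were lower still. The difference was -1.06 ± 0.49 (unadjusted p = 0.0393, limma), and -0.97 on the second probe. CD163, a scavenger receptor and defining marker of macrophages, was at -0.40 ± 0.19, again with 7 of 7 tumors below. ITGAM (the alpha chain of Mac-1) was at -0.27 ± 0.10, while CD68, another defining marker, was at 0.23 ± 0.33, and CD14 and CSF1R at -0.20 ± 0.16 and -0.24 ± 0.31. The second probes of ITGAM and CD14 were at -0.21 ± 0.17 and -0.04 ± 0.13.

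TAP1, which carries peptides to class I molecules, had ratios of -0.89, 0.47, 0.15, -0.79 and -0.65 in low or medium grade Cy5 tumors, against -0.45 at the lowest, 0.23 at the median and 1.69 at the highest in high grade ones. In Cy3 TAP1 was at -0.74 and -0.41, against -0.90 at the lowest, -0.35 at the median and 0.54 at the highest. Tumors 5, 18 and 20 lay under every high grade tumor in Cy5, and tumor 6 was the exception on the high side. PSMB9, a subunit of the immunoproteasome, was at -0.67 ± 0.29 and TAP1 at -0.54 ± 0.24 (unadjusted p = 0.029 and 0.0312, limma). DLA88, a canine class I heavy chain, was at -0.61 ± 0.35, B2M, the class I light chain, at -0.65 ± 0.41 and -0.57 ± 0.39 on its 2 probes, and HLA-DRB1, a class II chain, at -0.68 to -0.42 on 3 probes.

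By tumor, the myeloid list stood at -0.49, 0.18, -0.03, -0.54, -0.57, -0.72 and -0.03 in tumors 5, 6, 12, 17, 18, 20 and 28, against -0.99 to 1.80 (median -0.09) in high grade tumors. Antigen presentation stood at -0.80, 0.34, -0.28, -0.46, -0.91, -0.76 and -0.12 in the same tumors, against -0.78 to 1.25 (median 0.01). Tumors 5, 17, 18 and 20 were low in both lists, tumor 6 was above 0 in both, and tumors 12 and 28 were between. Both list medians were below 0 in all 49 alternative fits, from -0.39 to -0.08 for the myeloid and from -0.63 to -0.11 for the antigen presentation list, with the values nearest 0 in Cy3 tumors alone for the myeloid list and in SS for antigen presentation. Lymphocyte genes were sparse. The 5 probes of T and NK cells were all below 0 (median -0.13, CD3E, a chain of the T cell receptor complex, at -0.14 ± 0.10), and JCHAIN, the joining chain of plasma cell antibodies, was at -0.95 ± 0.40 on its only probe, with -1.37 in Cy5 and -0.23 in Cy3 tumors alone. In Cy3 tumors alone the medians of the T and NK and of the B and plasma cell lists were above 0, at 0.03 and 0.26. The interferon response list had 3 probes and a median of -0.16.

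Muscle and vessel genes were also mostly below 0. For skeletal muscle 49 of 62 probes were below 0 and 13 above, with a median of -0.13, and 0 were higher and 4 lower at an unadjusted p under 0.05, against 2.05% and 1.90% of all probes, of which 52.7% were above 0. ACTA1, skeletal muscle actin and a defining marker, had ratios of -0.78, -0.70, -0.61, -0.94 and -0.66 in low or medium grade Cy5 tumors, against -1.19 at the lowest, -0.24 at the median and 2.76 at the highest in high grade ones. In Cy3 it had -1.30 and -1.47, against -1.36 at the lowest, -1.01 at the median and 1.91 at the highest. All 7 were below the high grade median within a narrow band, while a few high grade tumors were far above. The 5 ACTA1 probes were at -1.09 to -0.46, TPM3 (a tropomyosin of slow muscle) was at -0.36 ± 0.15 and MYL3 (a slow muscle myosin light chain) at -0.45 ± 0.15. Of other defining markers, MYH2 was at 0.01 ± 0.11 and TNNT3 at -0.53 ± 0.40. The muscle list stood at -0.20, -0.31, -0.20, -0.18, -0.31, -0.24 and -0.09 in tumors 5, 6, 12, 17, 18, 20 and 28, against -0.33 to 0.89 (median -0.10) in high grade tumors.

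Of 17 endothelial probes 14 were below 0 and 3 above (median -0.19), with 1 lower at an unadjusted p under 0.05, against 1.90% of all probes. VWF, the clotting factor stored by endothelium and a defining marker, was at -0.36 ± 0.14, with its other probes at -0.17 and -0.46. PECAM1, a junction protein and defining marker, was between -0.31 and 0.09 on 6 probes, MCAM, an adhesion protein of vessels and pericytes, at -0.48 ± 0.43 and ANGPT2, a ligand of the receptor TEK, at 0.35 ± 0.23. ANGPT2 was above the high grade median in 3 of 7 tumors and at 0.16 without tumor 28, and the other MCAM probes were at -0.38 and -0.10. High grade means of ANGPT2 were -1.13 in Cy5 and 1.19 in Cy3. Relative to the mean of its dye, ANGPT2 was at 1.26, 1.075 and 0.53 in tumors 6, 28 and 5. In tumors 12, 17, 18 and 20 it was at -0.09, -0.31, -0.30 and -0.03. With each gene counted once the endothelial level was -0.27 to 0.00 (median -0.04) in low or medium grade and -0.25 to 0.38 (median -0.05) in high grade tumors. These muscle, vessel and myeloid values stand beside the bone matrix values above in the same 7 tumors, and their part in any of those differences was not tested.

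**Figure D3:**
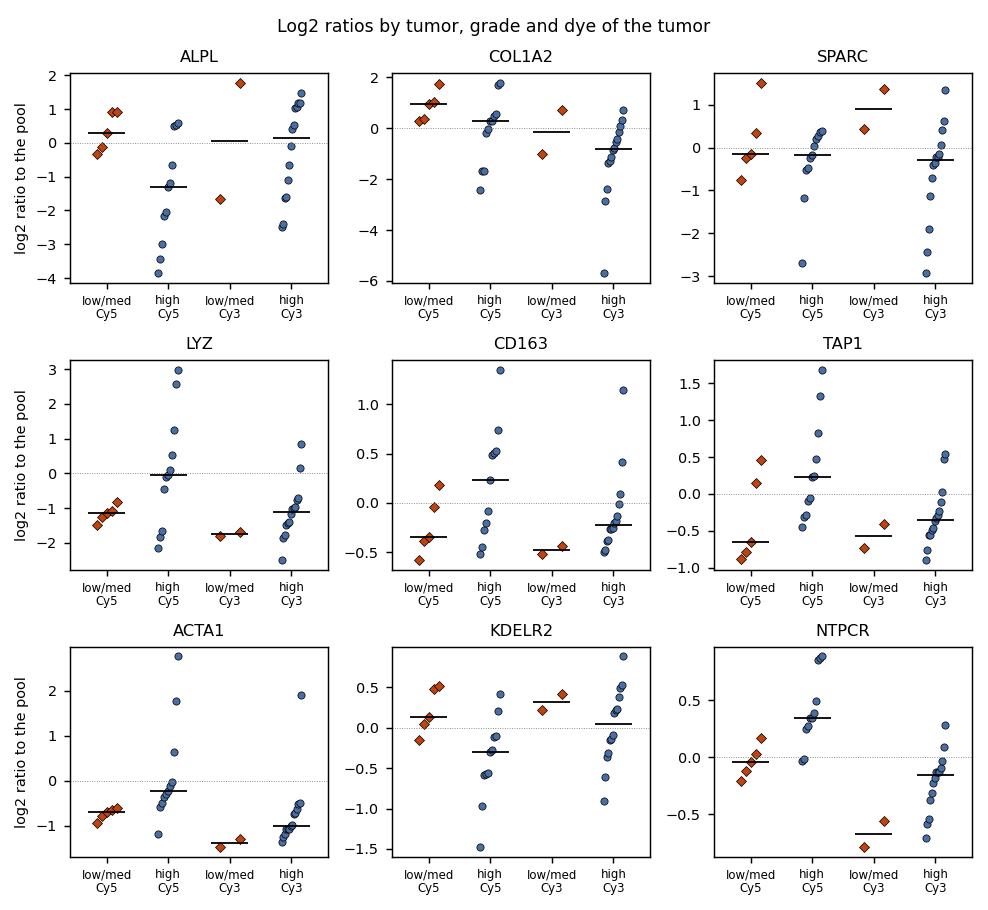
Log2 ratio to the pool by tumor for 9 genes (y axis; low or medium grade as red diamonds left of high grade as blue circles, first for Cy5 and then for Cy3 tumors; black lines, medians). In Cy5 the median of ALPL, COL1A2 and KDELR2 is higher in low or medium grade tumors and that of LYZ, CD163, TAP1, ACTA1 and NTPCR is lower, with overlap in every panel.

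**Figure D4:**
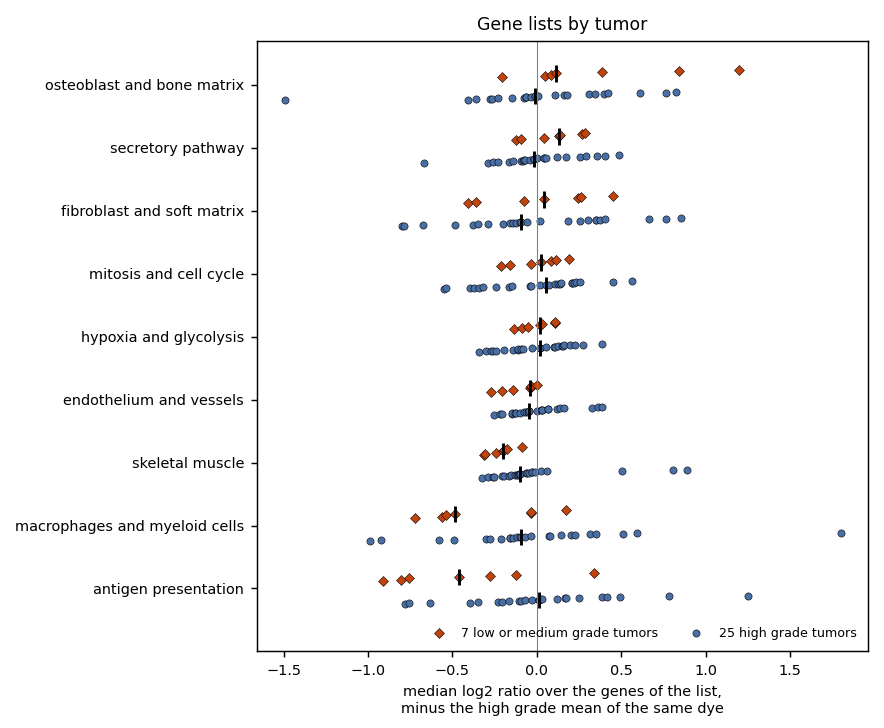
List level by tumor (x axis, median log2 ratio over the genes of a list minus the high grade mean of the same dye) for 9 lists, 7 low or medium grade tumors above 25 high grade tumors; black lines are medians. The median was -0.46 in low or medium grade and 0.01 in high grade tumors for antigen presentation, and 0.02 and 0.05 for mitosis and cell cycle.

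The secretory pathway, which handles collagen and other exported proteins, had 55 of 80 probes above 0 and 25 below, against 52.7% of all probes above 0, with a median of 0.07. Of these, 3 were higher and 0 lower at an unadjusted p under 0.05, against 2.05% and 1.90% of all probes, and the 3 are of 2 genes: the SEC61B probe given above and both probes of KDELR2, a receptor that returns resident proteins to the endoplasmic reticulum. KDELR2 had ratios of 0.13, -0.15, 0.05, 0.52 and 0.48 in low or medium grade Cy5 tumors, against -1.48 at the lowest, -0.30 at the median and 0.42 at the highest in high grade ones. In Cy3 it had 0.22 and 0.42, against -0.91 at the lowest, 0.05 at the median and 0.88 at the highest. Both probes had all 7 tumors above the high grade median, at 0.50 ± 0.20 and 0.44, and its relative KDELR3 was at 0.55 ± 0.30 with 7 of 7 above. SERPINH1, the collagen chaperone HSP47, was at 0.42 ± 0.31. The list median was -0.06 in Cy3 tumors alone and -0.04 in SS dogs alone, so the direction of the list is not settled.

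Lists of housekeeping machinery had medians near 0. Their counts at an unadjusted p under 0.05 stand beside 2.05% higher and 1.90% lower over all probes. The median was -0.02 for cytosolic ribosomal proteins (136 probes, 1 higher and 1 lower at an unadjusted p under 0.05), -0.01 for the proteasome (48 probes, 3 higher and 2 lower), -0.04 for translation factors (52 probes, 0 higher and 1 lower), -0.07 for splicing factors (83 probes, 3 higher and 4 lower), -0.02 for chromatin modifiers (65 probes, 0 higher and 1 lower) and -0.01 for hypoxia and glycolysis (45 probes, 0 of either). Except for splicing factors, each of these medians took the opposite sign in at least 1 of the 49 alternative fits. Single members were EIF3F, an initiation factor subunit, at -0.28 ± 0.11 with its other 3 probes at -0.26 to -0.20, BRD3, a reader of acetylated histones, at -0.34 ± 0.12, and SNRPA (a protein of the U1 particle) at -0.22 ± 0.09. PSMC4, an ATPase of the proteasome, was at 1.83 ± 0.82, but tumor 18 had a ratio of 8.24 where the other Cy5 tumors of low or medium grade had 0.80 to 3.20, and its second probe was at 0.08. Without tumor 18 PSMC4 was at 1.02. Signaling lists were near 0 as well, with medians of 0.08 for Wnt signaling, 0.01 for growth factor signaling, in which MTOR was at 0.25 ± 0.12 and its substrate kinase RPS6KB1 at -0.22 ± 0.11, and -0.04 for integrins and focal adhesion. In Cy3 tumors alone these list medians had the opposite sign, at -0.07, -0.05 and 0.03. The second probe of RPS6KB1 was at 0.17, and without tumor 28 the first was at -0.12, while the other probes of MTOR were at 0.21 and -0.04. High grade means of the first MTOR probe were -0.66 in Cy5 and 0.72 in Cy3. Relative to the mean of its dye, this probe was at 0.61, 0.515, 0.47 and 0.28 in tumors 6, 28, 12 and 5. In tumors 17, 18 and 20 it was at -0.12, -0.33 and 0.03.

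The 7 tumors correlated with each other about as they did with high grade tumors. After each probe was centred within its dye, the 21 pairs of low or medium grade tumors correlated across probes at a median of -0.05 (range -0.18 to 0.20). The 175 pairs of a low or medium with a high grade tumor had a median of -0.03, and so had the 300 pairs of high grade tumors. Within a dye the medians were -0.05, -0.08 and -0.08 for low or medium, mixed and high grade pairs. Between dyes they were -0.0326, -0.0005 and -0.0001 in the same order. Centring within a dye lowers the correlations of same-dye pairs, so values near or below 0 do not by themselves show that tumors are unlike. These are correlations across probes, which are not independent, and they are given as a description. Among the 21 pairs the highest value, 0.20, was that of tumors 6 and 28, of different dyes, and the lowest, -0.18, that of tumors 6 and 18.

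On principal components of the centred values, which held 8.31% and 7.77% of the variance, the low or medium grade tumors were scattered. Tumors 28 and 6 took the lowest places, 32 and 31 of 32, on the second component, while tumors 18 and 20 took places 4 and 10. Tumors 28 and 6 also lay at an end of the dye strengths of their dye, given below. On the first component the 7 held places 11 to 25, inside the range of high grade tumors. Tumor 28, the low grade one, was the highest of the 16 Cy3 arrays at 13.8% of probes and the lowest at 9.06%. For tumor 12, the other low or medium grade tumor in Cy3, these shares were 3.91% and 5.01%. Among high grade Cy3 tumors the shares ranged up to 10.9% and 17.1%, both in tumor 13, and were 10.5% and 11.1% in tumor 22. Leaving out tumor 28, and so comparing medium with high grade, limma called 0 probes.

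**Figure D5:**
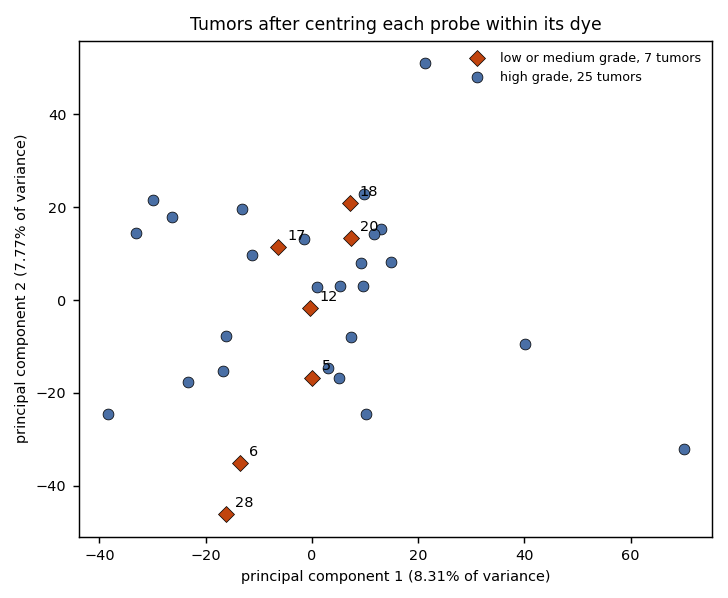
Tumors on the first and second principal component after each probe was centred within its dye (axes in component scores, 8.31% and 7.77% of variance; red diamonds, low or medium grade with tumor numbers; blue circles, high grade). Tumors 28 and 6 lie lowest on the second component and the other 5 lie among high grade tumors.

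The strength of the dye effect also differed between arrays. In Cy5 it was 0.51 to 1.15 in low or medium grade and 0.72 to 1.34 in high grade tumors, as the loading of an array on the mean difference between the dyes, and in Cy3 it was 1.10 and 1.47 in tumors 12 and 28 and 0.26 to 1.32 in high grade tumors. Tumor 6 had the weakest dye effect in Cy5, at 0.51, and tumor 28 the strongest in Cy3, at 1.47. The weakest in Cy3, at 0.26, was in tumor 13, which took place 1 on the second component. Whether dye strength enters the places on that component, or the correlation of tumors 6 and 28, was not tested. With each array's own loading in the model in place of its dye, limma called 0 probes. Nor were probes called when sex was added or when the 6 axial or extraskeletal tumors, all of high grade, were left out.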

How the data were processed

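The members of the grade groups and the gene lists were chosen with earlier results of these data known. The deposited values are normalized log2 ratios: the authors normalized the arrays by print-tip Lowess after defective spots had been flagged, took logarithms and switched the arrays with swapped dyes. The base of the logarithm and the direction, tumor over pool, are not written in the file and were taken from the switching that the methods state and from the values. The per-probe means of the Cy5 and of the Cy3 arrays correlated at -0.658 across probes, and array direction beyond the stated switching was not tested. The image software is not given in the sources used here. Grade, sex, site and subtype came from the study's clinical table through the tumor numbers, since the sample labels give no grade.

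The table held 22176 probes with 5 missing values, and all probes had the 6 low or medium and 20 high grade values required. Platform annotation gave 7694 probes 1 symbol (5246 genes) and 14482 none. Of the named probes 7340 were matched to RefSeq gene identifiers, and 0 symbols changed. The comparison used limma 3.58.1 in R 4.3.3 (lmFit, eBayes, two-sided) on all 32 arrays with dye and survival group as covariates, p-values adjusted after Benjamini and Hochberg over the 22176 probes and called under 0.10, the false discovery rate of the methods. Summaries used Python 3.11.15, pandas 2.3.3 and NumPy 2.4.6, and the fit was checked on simulated data. The study's own Significance Analysis of Microarrays takes no covariate and was not run. Named genes were the 12 higher and 12 lower genes of smallest p with the same sign in Cy5, Cy3, SS and LS arrays, and up to 3 such members of each of 34 lists. Of a gene with several probes the one of smallest p is given first. Other list members are given as values only, and CD68, CD14, CSF1R, B2M, HLA-DRB1, BIRC5, CCNB2, FOXM1, CENPA, SPP1, BMP2, PHEX, ATF4, SMAD5, PECAM1, MYH2, TNNT3 and SERPINH1 were named after their values were seen. So were DCN, COL3A1, DPT, COL2A1 and EPCAM. The number of arrays, 7 in the smaller group, limits the precision. Alternatives changed the covariates, the arrays in the fit, the scaling, the weights, the variance model, the test and the unit tested.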

Additional observations from a re-analysis of the deposited data

Results flagged for a closer look

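Values here are log2 ratios minus the mean of the high grade tumors of the same dye. Among the 7 low or medium grade tumors, 1 tumor stood apart from the other 6 for 11 of 146 items tested (112 genes and 34 lists) by Dixon's criterion at the 95% level, where chance sets apart about 1 group in 20. CSNK1D was at -3.07 in tumor 28, against -0.48 to 0.00 in the others. PSMC4 was at 7.29 in tumor 18, against -0.15 to 2.25 in the others. ALPL was at -1.45 in tumor 12, against 1.11 to 2.38 in the others. XRCC1, a scaffold of DNA strand break repair, was at -1.91 in tumor 6, against -0.35 to 0.67 in the others. SNRPE, a splicing protein, was at 1.59 in tumor 20, against -0.04 to 0.59 in the others. SMARCA4, an ATPase of chromatin remodeling, was at 0.53 in tumor 20, against -0.55 to -0.21 in the others. In tumor 17, ITGAM was at 0.10 (others -0.40 to -0.23), the keratin KRT18 at 0.13 (others -0.18 to -0.05) and the kinase GSK3B at -0.61 (others -0.20 to 0.01). In tumor 5, BRCA2, a protein of homologous recombination, was at 0.37 (others -0.36 to -0.15) and CD3E at -0.69 (others -0.22 to 0.12). Each of the 7 tumors stood apart for at least 1 gene, and tumor 17 for 3.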

How the results depend on the processing

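Over 19 alternatives and 32 fits that leave out 1 array each, limma or the rank-sum test called 0 probes except with Cy3 tumors only, which called 2 probes without a symbol (2 low or medium grade tumors against 14; -4.09 and 0.77, against -0.18 and 0.14 in Cy5 tumors only). Leaving out each array gave 0 to 0 calls. The smallest adjusted p was 0.0995 to 1.00 over the alternatives and 0.629 to 1.00 without 1 array, and the probes at an unadjusted p under 0.05 numbered 529 to 1933 and 673 to 1205. Limiting values to 4 on either side of 0 was chosen after seeing the data and called 0 probes. Leaving dye out of the interaction of grade with survival called 0 probes. Of 5712 values of the 112 named genes 23 had the opposite sign and 0 passed the threshold. The fits to Cy5, Cy3, SS and LS tumors alone could not reverse a sign, since the genes were chosen for the same sign there. The 32 fits without 1 array share nearly all arrays, so the number of reversals does not measure how stable the genes are. With no covariate and with survival group only, in that order, the values were -0.28 and -0.25 for CKS1B, -0.33 and -0.31 for ANGPT2, -0.15 and -0.17 for CSF2, 0.027 and 0.023 for CIDEA, 0.024 and 0.032 for KRT18, -0.045 and -0.008 for PSMA7, -0.23 and -0.21 for DNAJB6, -0.067 and -0.057 for TLE1, and -0.17 and -0.16 for MTOR. With no covariate CA2 was at -0.042 and RPL19 at 0.004. GMNN was at 0.03 in the rank-sum test, MCM7 at -0.037 as 1 mean per gene, and COMP at -0.026 without tumor 12 (range -0.026 to 0.416 over the fits without 1 array). Leaving out 1 tumor also moved CKS1B to 0.04 (tumor 28), BUB3 to -0.07 (tumor 6), DUT to -0.15 (tumor 8), GMNN to -0.15 (tumor 30), CD3E to -0.06 (tumor 5) and DLA88 to -0.37 (tumor 12). No paired analysis was possible because the tumors of the grades come from different dogs and share no numbers. The signal over background of the spots was not analysed here, and only 2 low or medium grade tumors were in Cy3. The stated intervals are those of single probes and are not limits of detection after adjustment over all probes. NTPCR, at -0.47 with a 95% interval of -0.71 to -0.22 in limma, excluded 0 and was still not called. With 7 against 25 tumors, differences inside the stated intervals, and larger ones, could thus have been missed.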

Other observations

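Some lists described nowhere else had few probes. Adipocyte genes (5 probes) had a median difference of 0.10, with RBP4, a carrier of retinol, at 0.70 ± 0.41 and the desaturase SCD at 0.36 ± 0.31 (SE), and at 0.06 on its second probe. CIDEA, also on that list, was at -0.144 ± 0.125. Epithelial genes (7 probes) had a median of -0.01, with KRT8, a keratin, at -0.31 ± 0.26 and DSP, desmoplakin, at -0.17 ± 0.16. The defining markers KRT18 and EPCAM were at -0.07 ± 0.16 and -0.002 ± 0.12. Nerve and glia genes (9 probes) had a median of 0.04, with NEFL, a neurofilament chain, at 0.20 ± 0.11 and, on its second probe, -0.01. STMN2 of the same list was at -0.31 ± 0.23. Immediate early and stress genes (22 probes) had a median of -0.06, with IER2 at -0.46 ± 0.24. MT1E and NFKBIZ of that list were at 0.185 ± 0.122 and 0.209 ± 0.155. Nuclear envelope and pore genes (31 probes) had a median of -0.04, with NUP133 at -0.30 ± 0.14 and NUP85 at -0.164 ± 0.095. SUN1, a protein of the inner nuclear membrane, was at 0.37 ± 0.19 and above the high grade median in 7 of 7 tumors. Its second probe was at 0.01 with 3 tumors above. The median of the adipocyte list was below 0 in Cy3 tumors alone and in SS dogs alone, and those of the epithelial, the nerve and glia, the stress and the nuclear envelope lists also had the opposite sign in 1 or more of the 49 fits.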
